A study of Gallus gallus with 20 samples.

Results

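Fatty acid oxidation and peroxisome genes of the adult chicken kidney were the 75 genes, of 19650 named genes in the table, whose symbols begin with the letters of the acyl-CoA dehydrogenases, oxidases, thiolases, thioesterases and synthetases, the carnitine acyltransferases, the hydratases, isomerases and electron transfer flavoproteins, the fatty acid and acyl-CoA binding proteins, the HMG-CoA enzymes or the peroxins. Membership was read from the symbol alone and not from any measured level. The series holds 20 samples of chicken (Gallus gallus) kidney and testis, of which 19 are small RNA libraries that were not analysed here. Every value below comes from the 1 RNA-seq library, made from total RNA of adult kidney, with no sex, strain or treatment in the labels. It held 21832272 estimated reads over 79570 transcript rows.

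Fatty acids are activated to acyl-CoA, carried into mitochondria as carnitine esters and shortened there in a cycle of dehydrogenation, hydration, a second dehydrogenation and thiolysis. Peroxisomes run a parallel cycle that begins with an oxidase, acts on very long and branched chains and releases hydrogen peroxide. They import their enzymes through a machinery of proteins called peroxins. In the vertebrate kidney the proximal tubule depends on fatty acids as fuel and is rich in both organelles.

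Levels are given as TPM, the authors' length-corrected share of transcripts, which allow for transcript length, so genes can be compared with each other. Detection required a level of 1 TPM and 3 reads. Each gene's interval is an exact 95% Poisson interval of its reads and covers counting error only. There are no replicates, so no p-value was computed and no spread between animals is known. In a whole organ, fewer cells of a type and less RNA per cell cannot be told apart. A gene's reads can also lie on unnamed assembled transcripts, which held 25.9% of the library's reads, so a level can be too low.

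The library carried the markers of kidney tubules. SLC34A1, the phosphate transporter of the proximal tubule, stood at 4055 TPM, PCK1 at 2908 TPM and MIOX at 1702 TPM, and all 7 measured proximal markers and all 6 distal nephron markers were detected. The medians of these lists were 998 and 170 TPM. Of 10 hepatocyte markers 6 (60.0%) were detected, against 51.4% of named genes and 70.5% of genes with a symbol other than a LOC number. The 10 lay between 0 and 163 TPM with a median of 2.71 TPM. The highest were APOA4 at 163 TPM, F2 at 16.2 TPM and FGA at 8.57 TPM. ALB and TTR were not detected, at 0.492 and 0 TPM, and 3 reads of TTR would have been 0.353 TPM. Macrophage and blood cell markers lay between 0.328 and 486 TPM with a median of 37.2 TPM. Adipocyte markers lay between 0.429 and 19.8 TPM, muscle markers between 0 and 17.6 TPM and adrenal markers between 0 and 5.24 TPM.

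Nearly all of the fatty acid oxidation and peroxisome genes were detected, and many stood at high levels. Of the 75, 70 (93.3%) were detected, against 51.4% of all named genes and 70.5% of genes with a symbol other than a LOC number. A level of 100 TPM or more was reached by 20 members (26.7%), against 3.11% of named genes and 4.38% of genes with a symbol. The median member stood at 21.7 TPM, against 1.21 TPM for all named genes and 6.04 TPM for genes with a symbol. Together the members held 7533 TPM. Of named genes this was 1.17% of the TPM, and the members held 1.80% of the reads. Of the whole library they held 0.753% of the TPM and 1.16% of the reads. The summed TPM was uneven: ACSM4L alone held 26.7% of it, the leading 3 genes 39.3% and the leading 10 genes 66.1%. FABP4 at 1.14 TPM and FABP5 at 0.722 TPM stood on either side of 1 TPM, and ACADSB at 103 TPM and CPT2 at 84.5 TPM on either side of 100 TPM.

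**Figure D1:**
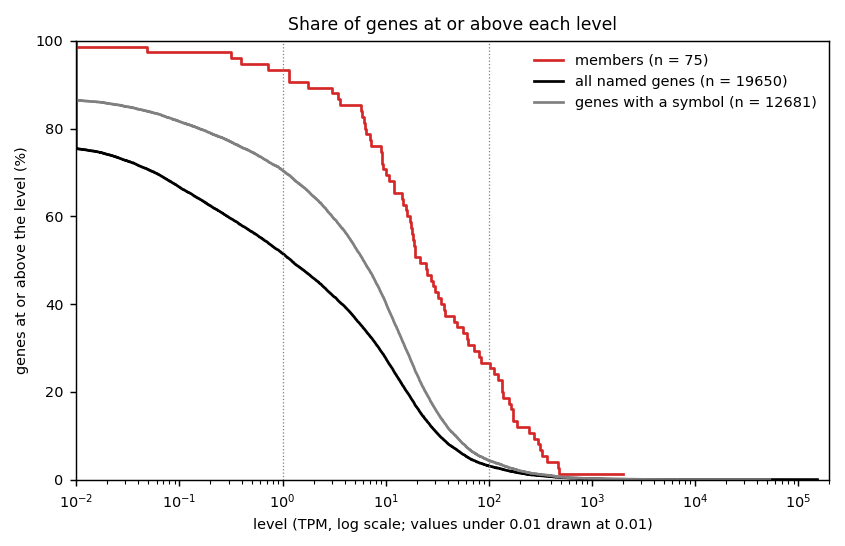
Share of genes (vertical axis, percent) at or above each level (horizontal axis, TPM on a log scale) for the 75 members, all 19650 named genes and the 12681 genes with a symbol, with dotted lines at 1 and 100 TPM. The curve of the members lies above both others at 1 TPM (93.3%, against 51.4% and 70.5%) and at 100 TPM (26.7%, against 3.11% and 4.38%).

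Other mitochondrial gene families of the same library were also mostly detected. Of 63 nuclear-encoded subunits of oxidative phosphorylation, the respiratory chain that takes up the electrons of fatty acid oxidation, 61 were detected with a median of 105 TPM. Of 32 mitochondrial carriers of the SLC25 family, 31 were detected with a median of 32.8 TPM. These differences between families were not tested, since a single library gives no test.

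The roles differed in median level, with overlapping ranges. Genes were grouped into roles by symbol. The group of the mitochondrial cycle and electron transfer had the highest median, 146 TPM over 18 genes. A level of 100 TPM or more was reached by 12 of these (66.7%), against 3.11% of named genes and 4.38% of genes with a symbol. The mitochondrial group is mixed, since it also holds ACAD8 and ACADSB of branched-chain amino acid breakdown, ECHDC1 and the methyltransferase ETFBKMT. It also counts ECI2, an isomerase found in peroxisomes as well as mitochondria. The 4 peroxisomal oxidation genes followed with a median of 107 TPM, and the 2 carnitine acyltransferases with 70.4 TPM. The symbol rule leaves HSD17B4 at 568 TPM and SCP2 at 324 TPM, both of peroxisomes, out of the peroxisomal group. Its place below the mitochondrial group therefore rests on that rule. Medians were 28.5 TPM over the 11 activating enzymes, 25.2 TPM over the 5 HMG-CoA enzymes, 16.8 TPM over the 8 thioesterases, 11.9 TPM over the 15 peroxins and 6.45 TPM over the 11 binding proteins. No peroxin and no HMG-CoA enzyme reached 100 TPM, which in groups this small is near the share of named genes.

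**Figure D2:**
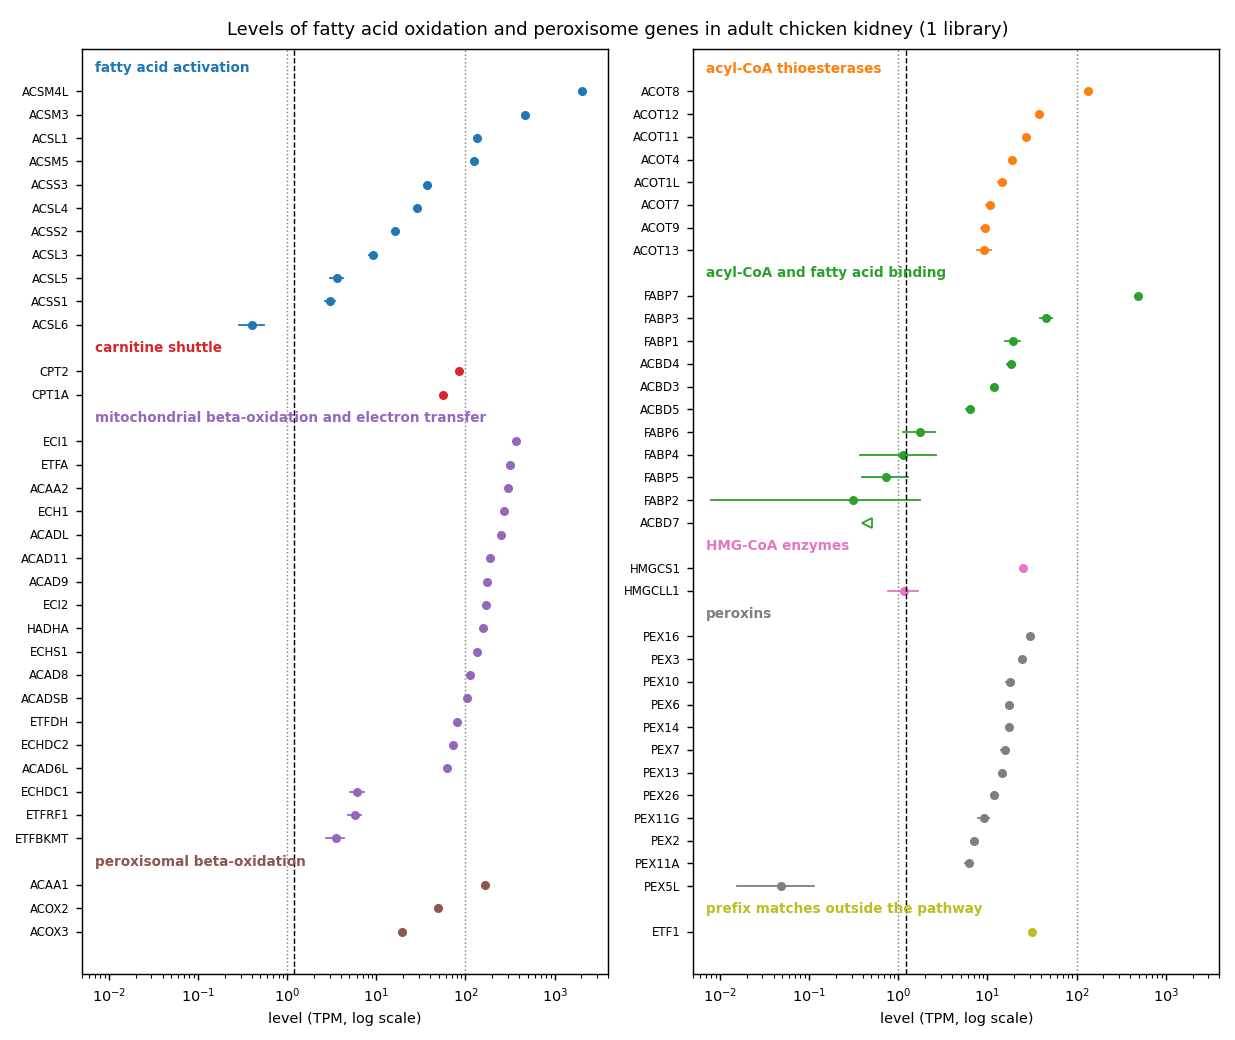
Level of 68 of the 75 members (TPM, log scale) by role, with 95% counting intervals as lines, an open triangle for the 3-read limit of ACBD7, which had no reads, dotted lines at 1 and 100 TPM and a dashed line at the median of all named genes (1.21 TPM). The mitochondrial group ran from 3.48 to 369 TPM around a median of 146 TPM, with quartiles of 74.0 and 232 TPM. Peroxins ran from 0.0484 to 30.3 TPM around a median of 11.9 TPM. Activating enzymes ran from 0.400 to 2014 TPM and binding proteins from 0 to 483 TPM.

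The activating genes were led in RNA level by medium-chain acyl-CoA synthetases. In mammals these mitochondrial enzymes also prepare carboxylic acids for conjugation with glycine. ACSM4L, named ACSM4 in the current RefSeq gene table, stood at 2014 TPM (2000 to 2028) from 77361 reads, above 99.9% of named genes and at rank 17 of them. ACSM3 followed at 465 TPM (458 to 473) and ACSM5 at 124 TPM (120 to 127), so that all 3 measured genes of this family exceeded 100 TPM. ACSM4L was 4.33-fold (4.25 to 4.41) above ACSM3, a ratio formed after the values were seen, and ACSM3 was 3.76-fold (3.64 to 3.89) above ACSM5. ACSM4 and ACSM5 are neighbours in the gene order of the GRCg7b assembly, with no gene between them. Near-identical stretches of such paralogs can share reads, and the reads of all 3 were split by estimation, so their exact ratios are uncertain.

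Among the long-chain synthetases, which start the oxidation of dietary and stored fat, ACSL1 stood far above the others. ACSL1 had 134 TPM (131 to 137). It exceeded ACSL4, which prefers arachidonate, by 4.72-fold (4.49 to 4.97), ACSL3 by 14.8-fold (13.5 to 16.1, or 31.2-fold with the most abundant transcript of each) and ACSL5 by 37.4-fold (31.9 to 44.1). ACSL6, a gene of the mammalian brain, was not detected, at 0.400 TPM from 40.9 reads. Of the enzymes for the shortest chains, ACSS3, a mitochondrial enzyme that in mammals prefers propionate, stood at 37.1 TPM and ACSS2, the cytosolic acetyl-CoA synthetase, at 16.1 TPM. ACSS1, the mitochondrial acetyl-CoA synthetase, stood at 3.02 TPM, and ACSS3 was 12.3-fold (10.8 to 14.0) above it.

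Of the carnitine shuttle, CPT1A and CPT2 were measured. CPT1A, the outer membrane enzyme that controls entry of long chains into mitochondria, stood at 56.2 TPM (55.2 to 57.2), and CPT2, which reverses the reaction inside, at 84.5 TPM (81.6 to 87.5). The ratio of CPT1A to CPT2 was 0.665 (0.640 to 0.692). By reads, CPT1A ranked at place 4 among the members with 11245 reads, and by TPM at place 26, because its single row is 12842 bases long. If the transcripts of this kidney were shorter than that row, the TPM would be too low.

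All 18 genes grouped with the mitochondrial cycle and its electron transfer were detected. ECI1, the isomerase that brings double bonds of unsaturated fatty acids into the cycle, had the highest level, 369 TPM (360 to 378). ETFA, a subunit of the flavoprotein that collects electrons from the dehydrogenases, had 316 TPM (307 to 325). ACAA2, the thiolase that releases acetyl-CoA, had 301 TPM (294 to 308). The isomerases as a set stood high, with ECH1, which handles dienoyl-CoA, at 273 TPM and ECI2 at 172 TPM. ECI1 exceeded ECI2, an isomerase found in peroxisomes and mitochondria, by 2.15-fold (2.07 to 2.24).

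ACADL, the long-chain dehydrogenase, stood at 247 TPM (241 to 254), ACAD11 at 187 TPM and ACAD9, in humans also an assembly factor of respiratory complex I, at 173 TPM. HADHA, the subunit of the trifunctional protein that carries hydratase and dehydrogenase activity, had 156 TPM, and ECHS1, the short-chain hydratase, 135 TPM. The dehydrogenases of branched-chain amino acid breakdown were close to each other, ACAD8 of the valine pathway at 111 TPM (107 to 115) and ACADSB of the isoleucine pathway at 103 TPM (101 to 106). ACAD9 and ECI2 could not be separated, with a ratio of 1.01 (0.969 to 1.05).

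Electron transfer genes were unequal. ETFDH, the membrane enzyme that passes electrons from the flavoprotein to ubiquinone, stood at 79.6 TPM (77.5 to 81.8), and ETFA exceeded it 3.96-fold (3.81 to 4.12). ETFRF1, a small regulator of the flavoprotein in humans, had 5.71 TPM and ETFBKMT, a methyltransferase that modifies its beta subunit, 3.48 TPM. ECHDC1, which in mammals removes a faulty carboxylated product, had 6.09 TPM from 112 reads on 6 of its 10 transcript rows. ECHDC2 had 72.1 TPM and ACAD6L 61.6 TPM. ETF1 at 31.9 TPM is a translation termination factor that shares only its first letters with the flavoproteins.

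In the peroxisomal cycle, 4 members were measured and all were detected. HSD17B4 and SCP2, which the symbol rule leaves out, are given below with the other peroxisomal genes. ACAA1, the peroxisomal thiolase, had 165 TPM (161 to 169) from 5750 reads, above 98.1% of named genes. ACOX2, an oxidase that in mammals shortens bile acid precursors, had 49.1 TPM (47.2 to 51.0), and ACOX3, which acts on branched chains, had 19.3 TPM (18.0 to 20.6). ACOX2 exceeded ACOX3 by 2.55-fold (2.36 to 2.75), or 1.48-fold with the most abundant transcript alone, and ACAA1 exceeded ACOX2 by 3.36-fold (3.21 to 3.52). Between the thiolases of the organelles, the peroxisomal ACAA1 had 0.547 times (0.529 to 0.567) the level of the mitochondrial ACAA2.

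**Figure D3:**
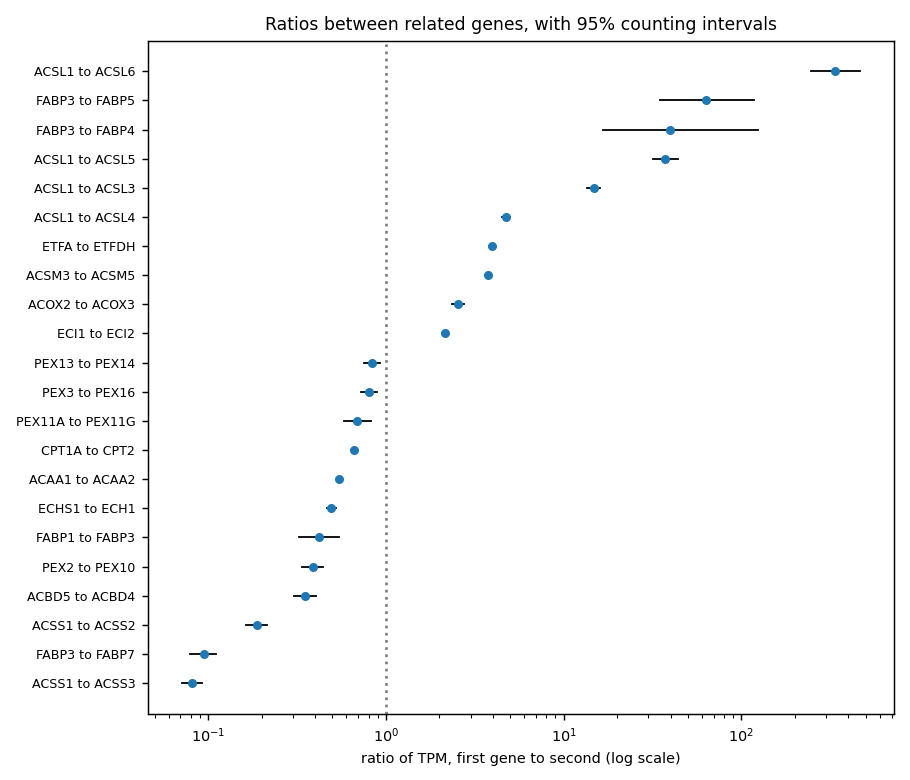
Ratio of TPM of the first to the second gene (log scale) for 22 pairs of related members, with exact 95% counting intervals as lines. ACSL1 stands above the other long-chain synthetases and FABP3 below FABP7, and none of the 22 intervals includes 1.

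All 22 ratios between related members had an interval that excluded 1. These intervals cover counting error only. Along the whole order of the members by level, intervals of neighbours were wider in relation to their gaps. Of 73 neighbouring pairs with reads in both genes, 44 had a ratio whose interval included 1, so the order of close members is not fixed even by counting error.

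All 8 thioesterases, which release free fatty acids from acyl-CoA, were detected, led by ACOT8, a peroxisomal thioesterase. ACOT8 stood at 136 TPM (131 to 141), ACOT12, a cytosolic acetyl-CoA hydrolase, at 37.9 TPM (36.4 to 39.5) and ACOT11 at 27.3 TPM (25.6 to 29.0). ACOT8 was 3.58-fold (3.38 to 3.79) above ACOT12, a ratio formed after the values were seen. The other 5, ACOT4, ACOT1L, ACOT7, ACOT9 and ACOT13, lay between 9.17 and 18.9 TPM. Those at the low end, ACOT9 and ACOT13, had a ratio of 1.02 (0.836 to 1.25).

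The fatty acid binding proteins, small cytosolic carriers of long chains, ranged from 0.313 to 483 TPM. FABP7, the brain-type member known from glia in mammals, stood at 483 TPM (468 to 499) from 3944 reads, the second highest level of all members. FABP3, the heart-type member, had 45.7 TPM (38.6 to 53.6) from 148 reads, and FABP7 exceeded it 10.6-fold (8.98 to 12.6). With annotated length FABP3 stood at 41.1 TPM and FABP7 at 617 TPM, further apart. FABP1, the liver-type member that human proximal tubules make, had 19.3 TPM (15.7 to 23.4) from 100 reads. FABP7 exceeded FABP1 25.1-fold (20.6 to 30.9), a comparison made after the values were seen.

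The remaining FABP genes were at or near the detection limit. FABP6, the bile acid carrier of the ileum, had 1.75 TPM from 24.0 reads, and FABP4, the adipocyte and macrophage member, 1.14 TPM (0.372 to 2.67) from 5 reads. The leading row of FABP6, with 44.4% of its TPM, has a non-coding identifier, and no single row of FABP6 reached 1 TPM. FABP5 had 0.722 TPM from 12.6 reads and FABP2, the intestinal member, 0.313 TPM from 1 read, and neither was detected. Beside FABP4, 5 of 6 adipocyte markers were detected, with a median of 9.82 TPM. They ran from PLIN1 at 0.429 TPM and ADIPOQ at 1.69 TPM to LIPE at 19.1 TPM and PLIN4 at 19.8 TPM. Of the macrophage and blood cell markers 8 of 9 were detected, among them CD74 at 173 TPM, LCP1 at 20.5 TPM, PTPRC at 13.8 TPM and CSF1R at 6.83 TPM. The others detected were the red cell genes HBA1, HBBA, HBM and SLC4A1, at 486, 448, 197 and 37.2 TPM. LYZ was not detected, at 0.328 TPM from 2 reads. Beside FABP3, 4 of 8 cardiac and skeletal muscle markers were detected, with DES at 17.6 TPM, ACTA1 at 10.2 TPM, MYL1 at 8.49 TPM and ACTN2 at 4.71 TPM, while the cardiac genes MYBPC3 and TNNT2 had 0 and 1 read. For comparison, 51.4% of all named genes and 70.5% of genes with a symbol other than a LOC number were detected. The detected share of muscle markers lay below both values, so their count does not stand out from the background. The shares of adipocyte markers and of macrophage and blood cell markers lay above both, but lists this short do not set them apart from the background. The second list also mixes red cell genes with those of macrophages. The part of these cell types in the FABP levels was not tested. The rows of FABP3 and FABP2 are 402 and 399 bases long, with effective lengths of 205 and 202 bases, so their TPM rests strongly on the length correction.

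Of the acyl-CoA binding proteins 3 of 4 were detected. ACBD4 stood at 18.4 TPM (16.6 to 20.2) and ACBD5, which ties peroxisomes to the endoplasmic reticulum, at 6.45 TPM (5.80 to 7.16), a ratio of ACBD5 to ACBD4 of 0.351 (0.304 to 0.406), or 0.562 with the most abundant transcript alone. ACBD3, a Golgi protein, had 11.9 TPM. No reads were assigned to ACBD7, for which 3 reads would have been 0.452 TPM.

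All 5 HMG-CoA enzymes, which serve ketone body and cholesterol synthesis, were detected, and their median was 25.2 TPM. HMGCS1, the cytosolic synthase of the cholesterol pathway, had 25.2 TPM (23.9 to 26.6) from 1293 reads. Its level was divided between rows of 3598 and 3326 bases, with 54.5% and 43.0% of its TPM. HMGCLL1, a lyase outside mitochondria, had 1.15 TPM (0.768 to 1.65) from 29 reads, so its interval included 1 TPM.

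The peroxins stood at low to moderate levels, from 0.0484 to 30.3 TPM. Of the 15, 14 were detected, and the median was 11.9 TPM. The genes that insert membrane proteins were highest, PEX16 at 30.3 TPM (28.0 to 32.7) and PEX3 at 24.3 TPM (22.6 to 26.1). PEX10 had 18.1 TPM (16.3 to 20.1), all of it on a single row with a non-coding identifier. Its partner PEX2, like it a RING ligase that tags import receptors with ubiquitin, was lower at 7.02 TPM (6.47 to 7.60), and PEX10 exceeded it by 2.58-fold (2.25 to 2.94). In the docking complex PEX14 had 17.3 TPM and PEX13 14.5 TPM.

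The receptor and export genes lay close by. PEX7, the receptor for the amino-terminal targeting signal, had 15.9 TPM. The export ATPase PEX6 had 17.5 TPM (16.4 to 18.7), and its membrane anchor PEX26 had 11.9 TPM (10.9 to 13.0). The elongation factors PEX11G and PEX11A had 9.08 and 6.25 TPM, a ratio of PEX11A to PEX11G of 0.689 (0.578 to 0.820). PEX5L, a relative of the main import receptor that in mammals acts in the brain, was not detected, at 0.0484 TPM from 5 reads on 1 of its 6 rows. The receptor PEX5 itself was not analysed here, nor were ACADM, ACADVL, ACADS, HADH, HADHB, ETFB, EHHADH, CRAT, CPT1B and PEX19.

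Transcript rows showed how each level was composed. The members had 155 rows, and 46 members had a single row. Of the 29 with several, the leading row held over 80% of the gene's TPM in 16 and at most 50% in 4, which were ACOX2, ACOT9, ACSL3 and FABP6. ACSM4L was divided between rows of 2642 and 2603 bases, at 57.9% and 42.1% of its TPM. ACOX2 had 49.0% on a row of 4126 bases and 46.4% on a row of 3152 bases, and ACOT12 59.4% on 4993 bases and 40.6% on 2238 bases. ACOT9 was spread over 7 of its 8 rows, with 28.3% on the leading one. Of the 155 rows, 29 had no reads.

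**Figure D4:**
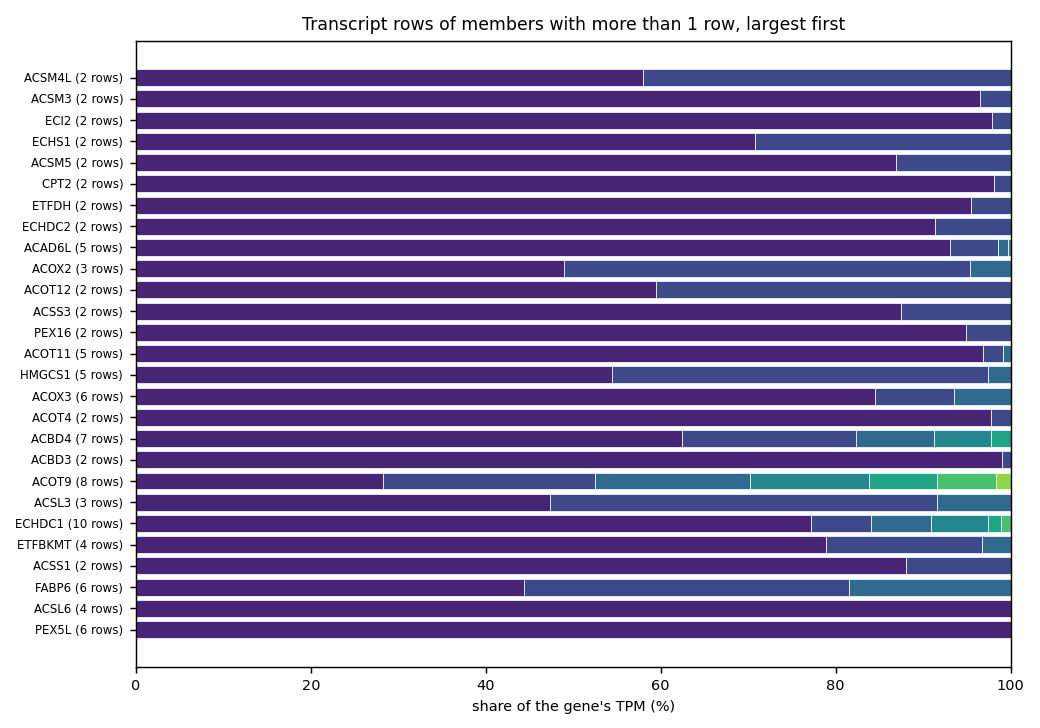
Share of each gene's TPM (horizontal axis, percent) held by its transcript rows, largest first, for 27 members with more than 1 row, ordered by level. In ACSM3, ECI2, CPT2 and ACBD3 a single row holds nearly all, while ACOX2 and ACSL3 are divided nearly evenly between a leading pair and ACOT9 is spread over 7 rows.

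Other genes of the same pathways were read from lists. Counts in this and the next paragraphs leave out listed symbols without a row. They stand beside detection of 51.4% of all named genes and 70.5% of genes with a symbol. Of 12 further genes of oxidation and ketone metabolism, 11 were detected, and their list median was 71.0 TPM. The carnitine synthesis enzymes ALDH9A1, BBOX1 and TMLHE stood at 183, 152 and 76.0 TPM, and PCCB, a subunit of propionyl-CoA carboxylase, at 172 TPM. For ketone bodies, OXCT1, which uses them as fuel, stood at 80.2 TPM (78.4 to 82.1) and ACAT1, the acetoacetyl-CoA thiolase, at 123 TPM. BDH1, which interconverts ketone bodies, had no reads, and 3 reads would have been 0.103 TPM.

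All 23 measured further peroxisomal genes passed detection, and their median level was 35.6 TPM. CAT, the catalase that destroys hydrogen peroxide, reached 1526 TPM (1516 to 1536). HSD17B4, the bifunctional enzyme of the peroxisomal cycle, stood at 568 TPM, above every member except ACSM4L, and SCP2, a thiolase and sterol carrier, at 324 TPM. The peroxisomal oxidases of amino acids PIPOX, DAO and DDO stood at 220, 191 and 35.6 TPM. Enzymes of ether lipid synthesis were lower, with FAR1 at 28.6 TPM, AGPS at 18.5 TPM and GNPAT at 13.9 TPM. Of the division factors, MFF stood at 44.0 TPM and GDAP1 at 0.298 TPM.

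In the list of fatty acid uptake and lipolysis, a single gene stood far above the others in RNA level. SLC27A2, a very long-chain acyl-CoA synthetase and transporter of the proximal tubule, stood at 452 TPM (445 to 460), while the scavenger receptor CD36 had 2.80 TPM and lipoprotein lipase LPL 1.77 TPM. In this list 10 of 12 genes passed detection, with a median level of 11.2 TPM, with MGLL and PNPLA2, lipases of stored fat, at 75.5 and 42.1 TPM. For fatty acid synthesis 7 of 8 genes passed, with a median level of 14.6 TPM, led by the elongase ELOVL6 at 97.6 TPM, ME1 at 38.9 TPM and ACLY at 32.2 TPM. For cholesterol synthesis 14 of 14 passed, with a median level of 9.41 TPM, and its highest genes were regulators, INSIG1, which restrains the pathway, at 75.5 TPM, SREBF2 at 38.1 TPM and SREBF1 at 22.7 TPM. Of its enzymes, NSDHL was highest at 14.4 TPM.

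Of 14 regulators of fatty acid oxidation, 12 were detected with a median of 18.3 TPM. HNF4A stood at 157 TPM (154 to 161), ESRRG at 135 TPM (130 to 141) and PPARG at 67.9 TPM (65.3 to 70.5). The fatty acid sensor PPARD had 13.8 TPM, and the coactivators PPARGC1B and PPARGC1A 17.5 and 11.1 TPM. RXRG at 0.115 TPM and PRKAA2 at 0.515 TPM were not detected.

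**Figure D5:**
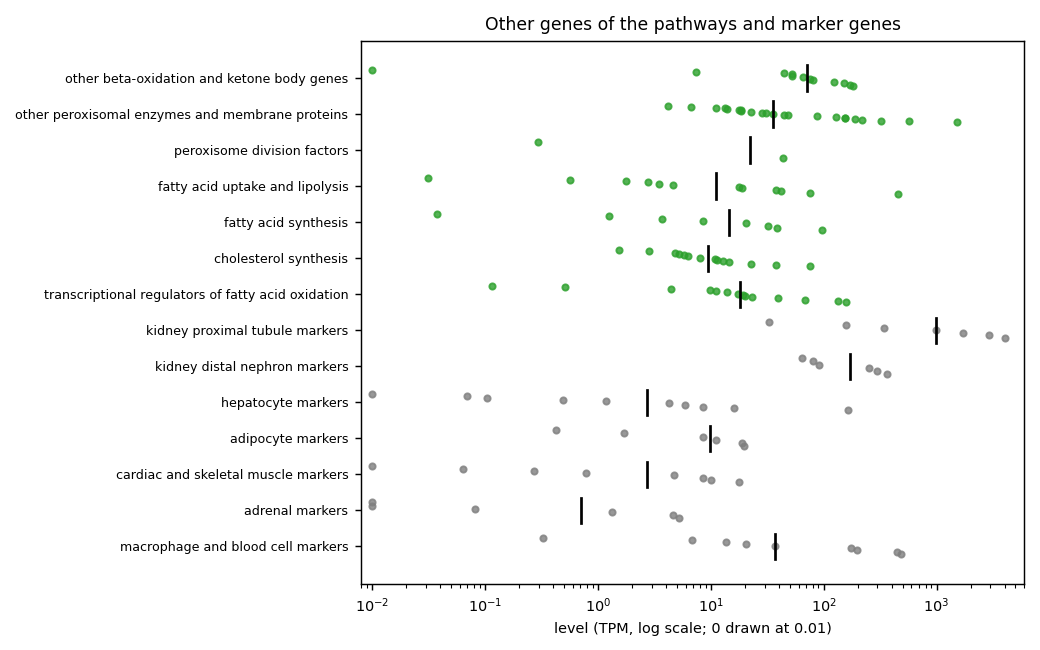
Level of each gene (TPM, log scale, 0 drawn at 0.01) in lists of other pathway genes (green) and marker genes (grey), with a black bar at each list's median. Proximal tubule markers have the highest median (998 TPM), and CAT at 1526 TPM and HSD17B4 at 568 TPM lead the peroxisomal list.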

How the data were processed

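One transcript table of adult kidney RNA-seq was used. Per the labels' protocols, total RNA was extracted with a kit that keeps small RNA and the library followed a TruSeq protocol. The authors' deposited estimated counts and deposited TPM values came from Salmon on galGal6, per the submitters' processing notes. Its version, strand setting and transcript set were not stated. The deposited TPM values share 1 total over all rows, including unnamed transcripts and very short RNAs. The table also lists each row's length and effective length, per the file headers.

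TPM and reads were summed over rows with the same symbol. Members were matched by symbol prefix, and the symbols of 69 of 75 are in the RefSeq GRCg7b gene table, used for names and gene order only. Members, lists and pairs were chosen with earlier results of these data known. The rule for names allowed every member and named every undetected member. For the 3 highest of each role it planned both reads and interval. Several of these were given with the interval alone, and ETF1 with neither. The rule also planned to name the 3 highest genes of each list and those at 0. Such naming was done for the pathway lists and for proximal tubule, hepatocyte, muscle and blood cell markers. It was not followed for distal nephron, adipocyte and adrenal markers. Of 182 listed symbols 137 had a row, and of 43 planned pairs 22 were computed. Of the members, 7 are counted in totals and medians but are not reported here singly. The protein comparison planned beside them was not made.

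Intervals of genes are exact Poisson intervals of reads rounded to whole numbers, and ratios have exact conditional binomial intervals, at 95%. Both leave out the error of splitting shared reads. It affected at least the 51 members whose reads were not within 0.001 of a whole number. Reads split among a gene's own rows can still sum to a whole number, as for ACSL3, so further members were affected. Since the reads carry no molecular identifiers, they do not count molecules. Intervals were checked only on values simulated under their own assumptions. That check cannot cover the error of read splitting or of the length correction. Python 3.11.15, pandas 2.3.3, scipy 1.17.1 and matplotlib 3.10.9 were used.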

Additional observations from a re-analysis of the deposited data

Results flagged for a closer look

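Rows outside the prefix rule carried reads of a gene of the same family. The 3 rows named LHX4-AS1 have accessions that the GRCg7b gene table assigns to ACBD6, an acyl-CoA binding protein. They drew 191 reads and stood at 10.4 TPM together, above the limit of 3 reads, and they enter no value of the members, though they count among the named genes. Without strand in the sources, reads of a gene and of an antisense partner cannot be told apart.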

How the results depend on the processing

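The number of detected members lay between 64 and 71 and the number at 100 TPM or more between 19 and 24 under the alternatives, and the members' median between 19.3 and 36.1 TPM. Scaling over named genes raised every gene with reads 1.55-fold, removing short rows 1.55-fold and removing the leading genes 1.42-fold. Annotated length changed genes by factors of 0.894 (FABP2) to 1.74 (CPT1A), and the most abundant transcript alone by 0.283 (ACOT9) to 1. With the most abundant transcript alone, the summed TPM of members was 6370, and the medians were 94.4 TPM for peroxisomal oxidation, 69.5 TPM for the carnitine shuttle and 19.8 TPM for the HMG-CoA enzymes. With annotated length they were 11847, 175, 118 and 42.0 TPM, and 19.7 TPM for peroxins. Over rows of named genes only they were 11692, 166, 109, 39.2 and 18.5 TPM. Without rows shorter than 300 bases they were 11665, 166, 109, 39.1 and 18.5 TPM. Without the 10 genes with the highest TPM, the first 4 were 10665, 151, 99.6 and 35.7 TPM. Without ETF1 and ETFBKMT the sum was 7498 TPM. None of the 22 ratios changed direction under these alternatives, but 6 left their intervals with the most abundant transcript alone and 4 with annotated length. Those moved over 1.5 times were, with the most abundant transcript alone, ACOX2 to ACOX3 (1.48), ACSL1 to ACSL3 (31.2) and ACBD5 to ACBD4 (0.562), and FABP3 to FABP5 (38.0) with annotated length, within its interval. The ratio of the members' median to the background median was 17.9 over all named genes, 3.90 among genes with at least 3 reads and 3.58 over genes with a symbol, a background chosen after seeing the data. Over the 69 members whose symbol the gene table carries, also chosen after seeing the data, the median was 24.3 TPM. The intervals of 4 members included 1 TPM. No paired analysis was possible because a single library was analysed, and for the same reason no library could be left out.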
